A study of Mus musculus with 14 samples.

Results

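The H3K27ac peaks of adult mouse muscle stem cells (MuSCs) stimulated with BMP6 were divided by whether a pSMAD1/5/9 peak of the same stimulated cells overlapped them by at least 1 bp. Of 78050 H3K27ac peaks, 5970 held a pSMAD1/5/9 peak, a share of 7.65%, and 72080 did not. Seen from the other side, 7207 of the 7339 pSMAD1/5/9 peaks lay in an H3K27ac peak, none of them in more than 1, and 132 lay in none. The CUT&Tag study comprised 14 libraries, of which 12 entered 6 consensus lists with 175565 peaks in all, one list each for pSMAD1/5/9, SMAD4 and H3K27ac in BMP6-stimulated and in control cells. Mononucleated cells came from limb, back and breast muscles of 9-week-old female mice of the genotype C57BL/6N(Tg(Pax7-EGFP)Tajb), were sorted for the PAX7-GFP reporter after a day in culture, and were grown for another 2 days. The sort rests on the reporter alone, and how many mice were pooled for a replicate was not given in the sources used here. Both groups were kept for 6 h in serum-free medium with 200 ng/mL soluble BMPR1A-Fc, a receptor domain that captures BMPs, before 100 ng/mL BMP6 or vehicle (dilute hydrochloric acid with bovine serum albumin) was given for 1 h. Each antibody and condition had 2 biological replicates, which were merged into 1 list by the authors, so no p-value can be given for a difference between lists. All intervals are at 95% and describe counting error only, since peaks of a single list are neither replicates nor independent of each other.

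BMPs bind pairs of type I and type II receptor kinases, which phosphorylate SMAD1, SMAD5 and SMAD9. The phosphorylated SMADs join SMAD4, enter the nucleus and bind DNA beside other transcription factors. In MuSCs, BMP signaling is known to hold back differentiation, in part through the ID proteins, which sequester the E proteins that MYOD needs as partners. H3K27ac, acetylated lysine 27 of histone H3, marks promoters and enhancers that are active. The cell type was checked at transcription start sites (TSSs). All 7 MuSC markers (Pax7, Myod1, Myf5, Cdh15, Vcam1, Itga7 and Des) had an H3K27ac peak within 2 kb of the TSS, each among the strongest 10% of the list. In the wider list of 20 MuSC and myogenic genes used below, 18 had a TSS peak, 15 of them in the strongest 10%. Calcr and Chrdl2 had none, and the strongest TSS peaks of Sdc4, Cd34 and Mef2c were at percentiles 64.5, 41.8 and 41.8. A TSS peak of any strength was present for 1 of 5 endothelial markers (Tek, signal percentile 56.5), 1 of 5 macrophage and leukocyte markers (Cd68, percentile 35.9), 1 of 5 fibro-adipogenic markers (Dpt, percentile 96.7) and 0 of 3 neural markers (Syt1, Rbfox3 and Snap25). Of Tek, Cd68 and Dpt, Dpt alone had pSMAD1/5/9 in its TSS peak, and the part of other cells in any result was not tested.

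The sites that carry the division are shown as 61 bases of the plus strand of GRCm39. For 8 H3K27ac peaks with pSMAD1/5/9, the window is centred on the strongest pSMAD1/5/9 summit inside the peak, and for 2 of the strongest peaks without, on the H3K27ac summit. They lie at chr2:152571619-152571679 (intergenic, 6516 bp upstream of the Id1 TSS), chr12:25148826-25148886 (1574 bp upstream of the Id2 TSS), chr4:123133366-123133426 (an intron, 6047 bp downstream of the Heyl TSS), chr8:112472852-112472912 (intergenic, 2361 bp upstream of the Bcar1 TSS), chr12:112991881-112991941 (an intron, 13964 bp downstream of the Pacs2 TSS), chrX:7158501-7158561 (an intron, 27130 bp downstream of the Clcn5 TSS), chr4:139561087-139561147 (278 bp upstream of the Pax7 TSS), chr5:140592971-140593031 (74 bp upstream of the Lfng TSS), chr10:107324589-107324649 (intergenic, 2624 bp upstream of the Myf5 TSS) and chr2:44998666-44998726 (an intron, 4559 bp downstream of the Zeb2 TSS). Capitals mark GGCGCC and GGAGCC, the letters of GC-rich SMAD1/5 sites, and CAGCTG, an E-box of the kind that MYOD binds. GTCTAGAC and the AP-1 site TGACTCA or TGAGTCA were searched as well, all on both strands, and stood in none of these windows.
Id1: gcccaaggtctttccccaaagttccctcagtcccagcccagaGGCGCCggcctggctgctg
Id2: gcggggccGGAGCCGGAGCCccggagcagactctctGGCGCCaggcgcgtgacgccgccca
Heyl: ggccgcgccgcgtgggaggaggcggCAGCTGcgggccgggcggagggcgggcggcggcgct
Bcar1: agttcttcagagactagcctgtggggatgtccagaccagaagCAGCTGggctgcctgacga
Pacs2: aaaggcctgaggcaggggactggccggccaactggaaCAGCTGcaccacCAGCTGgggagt
Clcn5: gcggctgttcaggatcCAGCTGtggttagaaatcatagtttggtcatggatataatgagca
Pax7: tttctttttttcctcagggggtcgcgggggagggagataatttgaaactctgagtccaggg
Lfng: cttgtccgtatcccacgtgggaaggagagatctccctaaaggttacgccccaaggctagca
Myf5: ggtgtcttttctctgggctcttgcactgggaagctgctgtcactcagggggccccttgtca
Zeb2: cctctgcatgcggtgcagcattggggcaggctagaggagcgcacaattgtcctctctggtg
The Id1 and Id2 windows held GGCGCC, and Id2 also held GGAGCC in 2 adjacent copies. CAGCTG stood in the Heyl, Bcar1, Pacs2 and Clcn5 windows, and Pacs2 had it in 2 places. These 6 windows were chosen to show the motifs, and none of the letters searched stood in the windows of Pax7, Lfng, Myf5 and Zeb2. Other motifs counted below were not marked, and the Lfng window holds GTGGGAA, a form of the RBPJ site. GTGGGAA or ATGGGAA stood in 2.68% of windows at pSMAD1/5/9 summits and in 2.58% at H3K27ac summits of peaks without pSMAD1/5/9. Of the 30 windows with pSMAD1/5/9 from which the printed ones were taken, 7 held any of the motifs searched, as did 0 of 5 windows without, too few to compare. Such matches were rare at this length. CAGCTG was present in 11.7% of all 7207 windows at pSMAD1/5/9 summits and in 6.26% (6.09 to 6.44) of the windows at H3K27ac summits of peaks without pSMAD1/5/9. The corresponding shares were 2.75% and 0.975% for GGCGCC and 8.63% and 5.09% for GGAGCC. Among the strongest 10% of H3K27ac peaks, the windows without pSMAD1/5/9 held CAGCTG in 6.87% (6.15 to 7.67), GGCGCC in 3.39% and GGAGCC in 8.07%. Windows centred alike, on the H3K27ac summits of peaks with pSMAD1/5/9, held CAGCTG in 8.94% (8.25 to 9.70), above those strong sites beyond the intervals, and GGCGCC in 2.71% and GGAGCC in 7.84%, with overlapping intervals. These windows came from all 5970 peaks with pSMAD1/5/9, of any strength, so the sets were not matched for strength or place. The AP-1 site stood in 5.62% (5.11 to 6.18) of the windows at pSMAD1/5/9 summits, but at H3K27ac summits its shares overlapped, with 3.80% (3.35 to 4.32) in peaks with pSMAD1/5/9 and 3.95% (3.41 to 4.58) at the strong sites without. GTCTAGAC stood in 15 of 7207 windows at pSMAD1/5/9 summits and in 0 of 4249 at the strong sites without, which allows a share there of up to 0.0706%.

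In BMP6-stimulated cells, pSMAD1/5/9 was found mostly at the strongest active sites. The signal of a peak is a score of the peak caller without a fixed unit, and it is used here as a rank within the list. The median H3K27ac signal was 7436 (7334 to 7539) for peaks with pSMAD1/5/9 and 1968 (1954 to 1982) for peaks without. As a percentile of the whole list, the median was 92.3 against 46.3. The 2 replicate columns of the list gave 92.3 and 91.0 for peaks with, and 46.3 and 46.4 for peaks without. The list was cut into 10 bins of equal size by signal. In the 5 weakest bins, between 0.102% and 0.512% of the H3K27ac peaks held pSMAD1/5/9. The share then went from 1.45% in bin 6 through 2.97%, 7.37% and 17.8% to 45.6% (44.5 to 46.7) in bin 10, the strongest 10%. Of the strongest 1% of peaks, 72.8% held pSMAD1/5/9, as did 82 of the strongest 100.

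**Figure D1:**
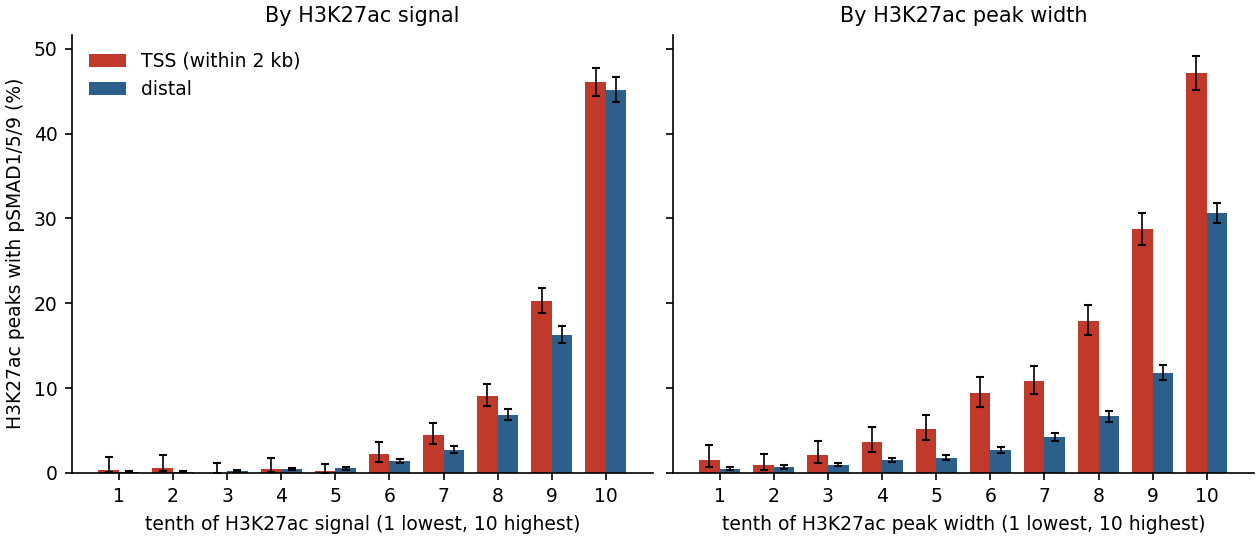
Share of H3K27ac peaks with a pSMAD1/5/9 peak (%) in 10 bins of equal size by H3K27ac signal (left) and by peak width (right), for peaks within 2 kb of a TSS and distal peaks. Bars are shares and lines their 95% Wilson intervals. By signal, the strongest bin stands at 46.1% for TSS peaks and 45.1% for distal peaks, while in the widest bin the shares are 47.2% and 30.6%.

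Wide peaks also held pSMAD1/5/9 more often, but width and signal went together (Spearman's rho 0.78 over 78050 peaks of 1 list, a description). The median width was 3500 bp with pSMAD1/5/9 and 1400 bp without. By width alone, the share went from 0.525% in the narrowest to 35.7% in the widest 10%. When both properties were crossed, signal kept a large difference at every width. Among the widest 10% of peaks, cut into 3 parts by signal, 62.4% of the strongest part held pSMAD1/5/9 and 9.45% of the weakest part. In width bin 5, with a median of 1400 bp, these shares were 5.73% and 0.0384%. Width at a fixed signal gave no such order, and in signal bins 1 to 8 the peaks with pSMAD1/5/9 were narrower than those without, with ratios of median widths from 0.688 to 0.938. These ratios carry no interval, and bins 1 to 5 held only 8 to 40 peaks with pSMAD1/5/9 each. The lowest ratio rests on 15 such peaks. In signal bin 8, cut into 3 parts by width, the narrow part held pSMAD1/5/9 in 7.82% and the wide part in 5.41%. In bin 9 the shares were 16.5% and 17.2%, with overlapping intervals. In bin 10 alone was the wide part above the narrow part beyond the intervals, with 56.7% against 35.4%. The consensus summit was the mean of both replicate summits, to within 1 bp, in 38.5% of peaks. Within these 30049 peaks, ranked anew, the share went from 0.0999% in the weakest to 36.9% (35.2 to 38.6) in the strongest bin. When signal was divided by width, the gradient was flatter, from 2.29% to 20.1%.

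**Figure D2:**
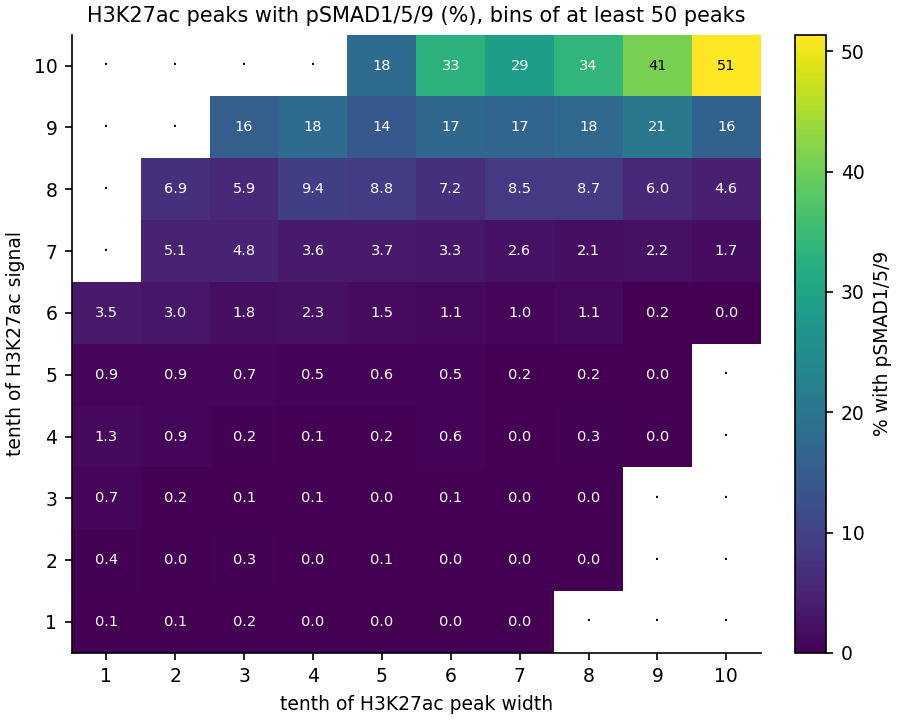
Share of H3K27ac peaks with a pSMAD1/5/9 peak (%) by bin of H3K27ac signal (rows, 1 weakest) and of peak width (columns, 1 narrowest), for combinations of at least 50 peaks; empty combinations have fewer. In the widest bin the share goes from 1.72% in signal bin 7 to 51.4% in signal bin 10, whereas along the row of signal bin 7 wide peaks have lower shares than narrow ones.

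Peaks at a TSS held pSMAD1/5/9 in 2420 of 11806 cases (20.5%) and distal peaks in 3550 of 66244 (5.36%), a ratio of 3.82 (3.65 to 4.01). Among peaks of like signal the difference was smaller. In bin 10, 46.1% (44.4 to 47.7) of TSS peaks and 45.1% (43.7 to 46.6) of distal peaks held pSMAD1/5/9, with overlapping intervals, while in bins 7 to 9 the TSS shares were higher beyond the intervals, with 20.3% against 16.3% in bin 9, 9.06% against 6.85% in bin 8 and 4.44% against 2.74% in bin 7. The Mantel-Haenszel ratio, which averages over bins, was 1.11 over bins of signal and 1.15 over bins of signal crossed with width. TSS peaks made up 44.6% of bin 10 and 3.83% of bin 1. By place, 40.5% of the peaks with pSMAD1/5/9 were at a TSS, 12.4% in exons, 17.99% in introns and 29.1% intergenic, against 13.0%, 18.3%, 38.3% and 30.3% of the peaks without. The strength of the pSMAD1/5/9 peaks themselves did not differ by place beyond their intervals, with median percentiles among pSMAD1/5/9 peaks of 51.3 (49.4 to 53.1) at TSS peaks and 50.6 (49.2 to 52.0) at distal peaks. It did go with the H3K27ac signal, from a median percentile of 26.9 in H3K27ac bin 6 to 59.7 in bin 10 (Spearman's rho 0.33 over 7207 peaks, a description).

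Inside the H3K27ac peak, pSMAD1/5/9 sat near the centre and near the consensus H3K27ac summit. The pSMAD1/5/9 peaks had a median width of 585 bp at TSS and at distal sites, and the H3K27ac peaks that held one, counted once per pSMAD1/5/9 peak, of 3920 bp. With the H3K27ac peak cut into 3 equal parts, the pSMAD1/5/9 summit fell in the middle part in 57.3% (56.1 to 58.4) of 7207 cases and in the outer 10% at either end in 1.79% of cases. Nearly all pSMAD1/5/9 peaks (99.5%) were contained in the H3K27ac peak, which by itself keeps summits from its edges, most of all in narrow peaks. In H3K27ac peaks of at least 5 kb, where this matters least, 46.0% (44.2 to 47.9) lay in the middle part. The median distance was 146 bp to the H3K27ac summit and 527 bp to the centre of the peak. Within 250 bp of the H3K27ac summit lay 64.7% of pSMAD1/5/9 summits, 90.8% of those in H3K27ac peaks of 1 to 2 kb and 42.8% of those in peaks of at least 5 kb. Distal and TSS peaks differed, with 68.4% (66.9 to 69.7) and 59.4% (57.7 to 61.2) of summits within 250 bp. The summits given in the replicate columns lay towards the lower coordinate of each call (median at 0.221 and 0.298 of the length, against 0.440 for the consensus summit), so the midpoint of the pSMAD1/5/9 peak was also placed, and 57.8% of midpoints lay in the middle part. For H3K27ac the replicate summits had medians of 0.452 and 0.198, against 0.474 for the consensus summit. Distances to the H3K27ac summit thus rest on a position joined from 2 replicates, which need not be the point of highest H3K27ac.

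Around the TSS the consensus summits of pSMAD1/5/9 and H3K27ac were offset. Of 2407 pSMAD1/5/9 summits in these peaks that lay within 2 kb of a TSS, 44.5% (42.6 to 46.5) were in the 500 bp upstream and 36.4% in the 500 bp downstream, with a median position 7 bp upstream. The H3K27ac summits of peaks with pSMAD1/5/9 had their median 93 bp downstream, with 30.7% in the 500 bp upstream. In peaks without pSMAD1/5/9 the median lay 149 bp downstream, with 18.5% (17.7 to 19.4) upstream and 59.6% downstream within 500 bp. Thus, the H3K27ac summit was on the upstream side of the TSS more often in peaks with pSMAD1/5/9, and the pSMAD1/5/9 summit more often still. TSS peaks with pSMAD1/5/9 were also wider and stronger than those without. Their median width was 3500 bp against 1960 bp and their median H3K27ac percentile 93.5 against 77.2. The part of width and strength in the summit positions was not tested.

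**Figure D3:**
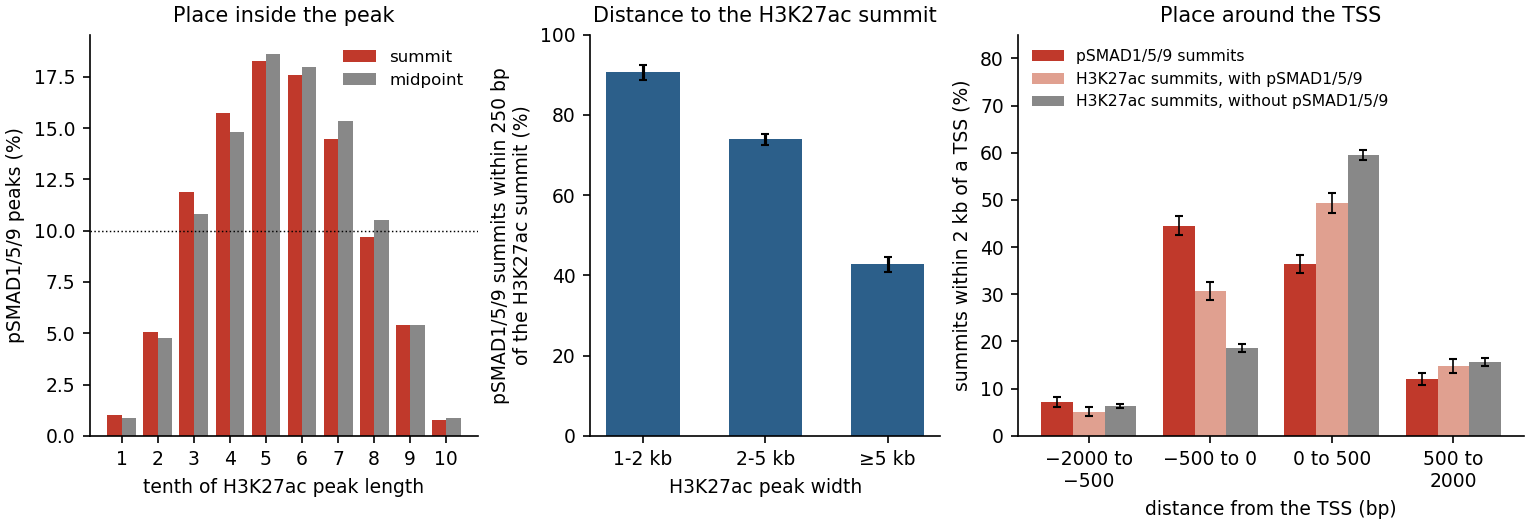
Left: place of the pSMAD1/5/9 summit and midpoint along the H3K27ac peak, in 10 parts of its length (% of 7207; the dotted line is an even spread). Middle: pSMAD1/5/9 summits within 250 bp of the H3K27ac summit (%), by H3K27ac peak width. Right: summits within 2 kb of a TSS (%) by distance from it, negative upstream; the upstream 500 bp hold 44.5% of pSMAD1/5/9 summits and 18.5% of the H3K27ac summits without pSMAD1/5/9. Lines are 95% Wilson intervals.

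Most of the sites were also acetylated in control cells. Of the 5970 H3K27ac peaks with pSMAD1/5/9, 99.0% overlapped an H3K27ac peak of control cells, against 69.7% of those without. This difference of 29.3 points went with signal, since in bin 10 all peaks of both sets had a control peak, and within bins of signal the weighted difference was 0.180 points. Of the 21881 H3K27ac peaks without a control counterpart, 59 (0.270%) held pSMAD1/5/9. The H3K27ac percentile was also compared between BMP6 and control peaks that overlapped only each other, 4377 pairs with pSMAD1/5/9 and 40489 without. It was higher in the BMP6 list by a median of 1.07 points (0.960 to 1.20) with pSMAD1/5/9 and 4.59 points (4.45 to 4.73) without, sets that differ in strength. Percentiles are ranks within lists of unlike length, 78050 peaks after BMP6 and 67790 in control cells. List length alone can shift them, and its part was not tested, so the shifts are not a measure of acetylation gained. At like strength the shifts were close. Between mean percentiles of 80 and 90, both medians were 2.08 points, with overlapping intervals. Among pairs of BMP6 and control peaks with a mean percentile of at least 90, the median percentile in BMP6-stimulated cells was 0.243 points above that of control cells with pSMAD1/5/9 (0.175 to 0.347) and 0.309 points above without (0.191 to 0.430). The replicate columns gave 1.65 and −0.916 points with pSMAD1/5/9 and 1.57 and −0.769 points without, so the direction of this small shift differed between the columns.

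By contrast, sites with and without pSMAD1/5/9 differed in SMAD4, the common partner of the SMADs, also in control cells. Among the strongest 10% of H3K27ac peaks, 74.1% (72.7 to 75.5) of those with pSMAD1/5/9 overlapped a SMAD4 peak of control cells and 27.2% (25.9 to 28.5) of those without. In BMP6-stimulated cells the SMAD4 shares were 86.5% and 40.3%. Read in the other direction, 69.5% of the peaks in bin 10 with control SMAD4 held pSMAD1/5/9 after BMP6, and 22.9% of those without control SMAD4. In bin 9 these shares were 46.2% and 10.6%, and in bin 8 they were 32.6% and 5.11%. A pSMAD1/5/9 peak of control cells overlapped 755 of the 5970 peaks (12.6%) and 113 of the peaks without (0.157%). Hence, 5215 active sites (87.4%) held pSMAD1/5/9 in BMP6-stimulated cells alone and are called gained below, and 755 are called kept, although the control peak may lie elsewhere in the same H3K27ac peak. Kept sites were stronger and wider than gained sites, with a median H3K27ac percentile of 97.1 against 91.4 and a median width of 5390 bp against 3220 bp. Control SMAD4 was present at 91.9% of kept and 57.8% of gained sites, and a TSS at 45.03% and 39.9%. The control pSMAD1/5/9 list was short, and sites below its threshold would count as gained.

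Base composition also differed within the strongest bin, bin 10. Peaks with pSMAD1/5/9 were also stronger and wider within this bin. Their median H3K27ac percentile was 96.2 and their median width 4760 bp, against 94.0 and 3780 bp without. The part of this in the SMAD4, GC and motif differences of bin 10 was not tested. In 500 bp at the H3K27ac summit of distal peaks in bin 10, the median GC content was 51.6% (51.4 to 52.0) with pSMAD1/5/9 and 48.6% (48.2 to 48.8) without. At TSS peaks the order was the opposite, with 63.4% (62.8 to 64.0) and 65.8% (65.2 to 66.2). Among distal peaks, the share with pSMAD1/5/9 was 26.7% at a GC content from 35% to 45% and 63.4% (59.5 to 67.3) from 55% to 60%. Among TSS peaks it was 55.4% from 55% to 60% and 41.9% (39.3 to 44.5) from 65% to 75%. The highest shares of both kinds therefore lay at intermediate GC content.

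**Figure D4:**
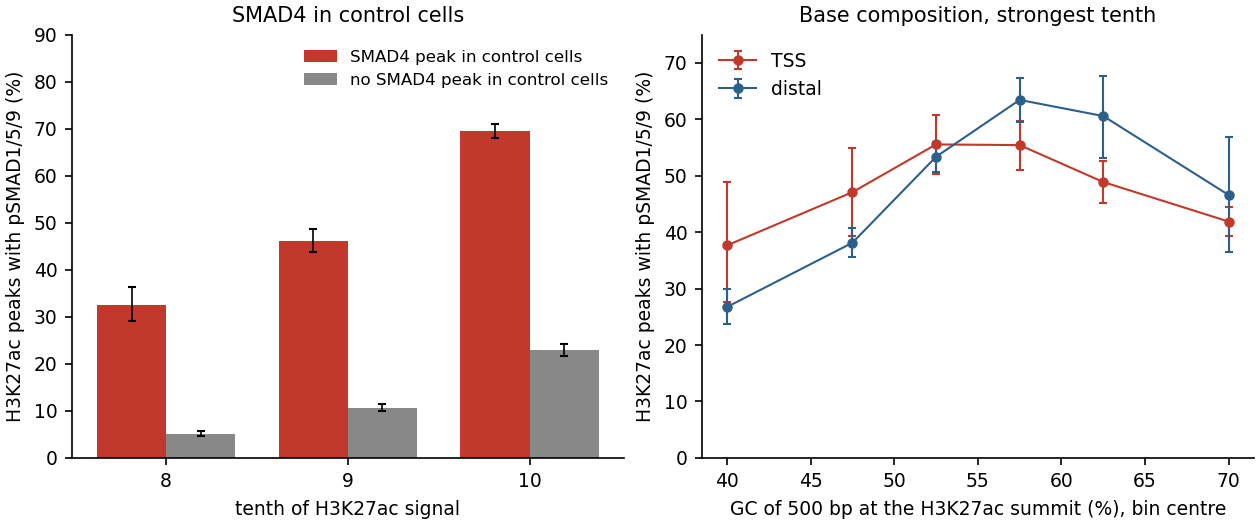
Left: share of H3K27ac peaks with pSMAD1/5/9 (%) in the 3 strongest bins of H3K27ac signal, for peaks with and without a SMAD4 peak in control cells (69.5% and 22.9% in bin 10). Right: the same share in bin 10 by GC content of 500 bp at the H3K27ac summit, for TSS and distal peaks, plotted at the centre of each GC bin. Lines are 95% Wilson intervals.

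Motifs were counted in the same 500 bp, as letters on both strands, for 9 motifs. CAGCTG stood in 56.9% of distal peaks of bin 10 with pSMAD1/5/9 and in 50.9% without, a difference of 6.03 points (3.04 to 9.00), and in 38.5% of all H3K27ac windows. At TSS peaks of bin 10 it stood in 33.5% and 24.6%, a difference of 8.86 points (5.84 to 11.9). In bin 9 the difference was 14.4 points (10.7 to 18.01) at distal peaks and 4.20 points (0.188 to 8.41) at TSS peaks. GGAATG, a core of TEAD sites, was also higher in bin 10, by 6.31 points at distal and 5.65 points at TSS peaks, but in bin 9 both intervals of the difference included 0; it was present in 27.8% of all windows. TGACTCA or TGAGTCA, the AP-1 site, differed by 4.89 points (2.93 to 6.89) at TSS peaks and by 1.10 points (−1.75 to 3.96) at distal peaks of bin 10, with 20.5% of all windows. In bin 9 its difference was 0.518 points (−1.62 to 3.10) at TSS peaks and 2.45 points (−1.13 to 6.13) at distal peaks. The GC-rich SMAD letters GGCGCC were 4.10 points less frequent at TSS peaks with pSMAD1/5/9 in bin 10 (34.5% against 38.6%), with an interval that included 0 in bin 9, and 1.81 points (0.449 to 3.22) more frequent at distal peaks (6.41% against 4.60%), with 7.18% of all windows. GGAGCC differed by 4.65 points (1.76 to 7.54) at distal peaks and by −1.95 points (−5.19 to 1.28) at TSS peaks, with 34.8% of all windows. GTCTAGAC, a palindrome of the SMAD box GTCT, was rare, with 1.44% against 0.675% at distal peaks of bin 10 and 0.639% of all windows. Promoter motifs went the other way at TSS peaks of bin 10. CCGGAAG, an ETS site, stood in 14.7% with and 20.9% without pSMAD1/5/9, and GGGCGG, a GC box, in 70.2% and 75.5%, beside 5.18% and 18.6% of all windows. In bin 9 CCGGAAG was again lower, by −4.68 points (−8.40 to −0.686), and the interval of GGGCGG included 0. GTGGGAA or ATGGGAA, the RBPJ site of Notch signaling, differed by −0.422 points (−2.91 to 2.08) at distal peaks and by 1.99 points (−0.399 to 4.41) at TSS peaks, with 20.0% of all windows. The motifs were counted without regard to GC content, and the part of GC content in these differences was not tested.

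Most active sites held a single pSMAD1/5/9 peak, with 5097 peaks holding 1, 659 holding 2 and 214 holding 3 or more. The largest number, 10, stood in a peak of 28000 bp at the TSS of Iffo1 (chr6:125119821-125147820), whose H3K27ac ranked 400. Pax7, the factor that defines MuSCs, and Irf2bpl, a transcriptional regulator, had 9 each. The 10 strongest H3K27ac peaks at a TSS with pSMAD1/5/9 were nearest to Bgn, Myh9, Kdm6a, Irf2bpl, Srpx2, Pacs2, Pax7, Bin1, Bcar1 and Mid1, and the 10 strongest distal ones to Msn, Vgll4, Klf14, Clcn5, 2310022B05Rik, Anxa11, Clic6, Alox5, Mrpl23 and Sh2b2. The peak of 68740 bp at Myh9, which encodes a non-muscle myosin heavy chain, ranked 5 by H3K27ac and held 5 pSMAD1/5/9 peaks, the best of rank 191 of 7339. Its H3K27ac signal was 10274 in the first and 31429 in the second replicate column, and the signal of its best pSMAD1/5/9 peak was 42812 and 30652. At Vgll4, which encodes a cofactor of TEAD proteins, a distal peak of 53550 bp ranked 3 by H3K27ac and held 8 pSMAD1/5/9 peaks, the best of rank 73. In the widest domains the replicates were far apart in H3K27ac signal, as for the distal peak whose nearest TSS is that of Klf14 (4907 and 38045), and the second column was the larger in all 10 distal peaks named here.

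Some of the strongest H3K27ac peaks held no pSMAD1/5/9. The 10 strongest H3K27ac peaks at a TSS without it were nearest to Myf5, Fgd1, Rps6ka3, Zfx, Zfp697, G6pdx, Eda2r, Fmr1, Xiap and Zeb2. The peak of Myf5, a myogenic determination factor, was 21560 bp wide and ranked 14 of 78050, with H3K27ac signals of 6342 and 23611, and it reaches over the TSS of Myf6 as well. SMAD4 was listed in this peak in both conditions. Zeb2 encodes a repressor that interacts with SMADs, and its peak, of rank 81, overlapped a pSMAD1/5/9 peak of control cells but none of BMP6-stimulated cells. Of these 10 peaks, 7 were on the X chromosome, beside 4 of the 10 strongest TSS peaks with pSMAD1/5/9. Over all sites, the X chromosome had pSMAD1/5/9 at 3.92% of its H3K27ac peaks and the autosomes at 7.94%, with single autosomes between 6.496% and 10.3%. In bin 10 the shares were 25.8% on the X chromosome and 47.4% on autosomes, and when signal was ranked within each chromosome they were 30.4% (26.7 to 34.3) and 47.2% (46.0 to 48.3). The X chromosome had 38 of the strongest 100 H3K27ac peaks, of which 29 held pSMAD1/5/9, as did 53 of the 62 on autosomes.  Of the 132 pSMAD1/5/9 peaks outside H3K27ac, 96 were on the X chromosome.

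At the level of genes, 11988 of 21757 protein-coding genes had an H3K27ac peak within 2 kb of the TSS, and for 2862 of them (23.9%) such a peak held pSMAD1/5/9. A further 2542 had none there but had pSMAD1/5/9 in another H3K27ac peak within 20 kb of the gene. A wide TSS peak can hold pSMAD1/5/9 far from the TSS. In 2605 of the 11988 genes (21.7%), a pSMAD1/5/9 peak itself overlapped the 2 kb around the TSS. Among the 4022 genes whose strongest TSS peak was in the top 10% of signal, 1918 (47.7%) had pSMAD1/5/9 in a TSS peak. Because the share depends this much on H3K27ac, each gene list is given with its median H3K27ac percentile beside that of all active genes, 84.4.

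Of the 15 genes of BMP response and feedback with an active TSS, 10 had pSMAD1/5/9 in a TSS peak, at a median H3K27ac percentile of 91.1, and 7 of the 9 in the top 10% had it. Id1, which encodes an inhibitor of E proteins, lay in a peak of 20440 bp (chr2:152565421-152585860, rank 132) with H3K27ac signals of 5514 and 14188 in the replicate columns and 5 pSMAD1/5/9 peaks, the best with signals of 39385 and 32497 at the site printed above. Id3 lay in a peak of 15820 bp (rank 187) with 6 pSMAD1/5/9 peaks, the best with signals of 50936 and 26622. Id2 had 2 and Id4, in a much weaker peak of rank 15219, had 1. The Id genes thus lay at active sites that differ widely in H3K27ac. The strongest pSMAD1/5/9 peak of the whole list, with signals of 167403 and 57971, stood in the TSS peak of Skil (chr3:31146641-31154480), whose product represses SMAD targets and whose H3K27ac ranked 664. The inhibitory SMADs both had pSMAD1/5/9, Smad7 with a best rank of 15 and Smad6 with 90, and the corepressor gene Ski with 516. The ubiquitin ligase gene Smurf1 had 1 peak of rank 3210 and the pseudoreceptor gene Bambi 1 of rank 5615. Of these 10 genes, 6 were gained (Id1, Id4, Bambi, Smad6, Smad7 and Smurf1) and 4 kept (Id2, Id3, Ski and Skil). Atoh8, Dlx2 and Smad9 had pSMAD1/5/9 in another H3K27ac peak within 20 kb. Nog, which encodes the BMP antagonist noggin, and Smurf2 had active TSSs without pSMAD1/5/9 within 20 kb.

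The genes for BMP receptors and SMADs were not set apart from all active genes in their share with pSMAD1/5/9. Of 17 listed genes for BMP receptors, ligands and SMADs, 13 had an active TSS, at a median H3K27ac percentile of 87.1. The ligand genes Bmp2, Bmp4, Bmp6 and Bmp7 had no H3K27ac peak at the TSS and are not among these 13. Of the 13, 3 had pSMAD1/5/9 in a TSS peak (23.1%, near the 23.9% of all active genes), namely Bmpr2, Acvr1 and Smad2. These 3 were among the 6 genes of the list with a TSS peak in the strongest bin. The paper assigns the products of Smad2 and Smad3 to TGF-β signaling, in contrast to that of BMPs. Smad1, Smad5 and Bmpr1a had strong TSS peaks, at H3K27ac percentiles of 98.3, 96.5 and 98.1, without pSMAD1/5/9 within 20 kb. The H3K27ac signals of Smad1 in the replicate columns, 6140 and 5311, were close to those of Bmpr2, 6156 and 4601. Acvr2a, Acvr2b, Bmpr1b, Rgma and Rgmb likewise had none, at percentiles from 47.6 to 81.3, and Smad3 and Smad4 had it in another H3K27ac peak.

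In the Notch pathway, 10 of 22 active genes had pSMAD1/5/9 in a TSS peak (45.5%), at a median H3K27ac percentile of 91.1, and 8 of the 12 in the top 10%. These were the effector genes Hes1, Hey1, Heyl and Hes6, the transcription factor genes Rbpj and Snai1, the receptor gene Notch3, the glycosyltransferase gene Lfng, and Numb, whose product antagonises Notch, with its relative Numbl. By H3K27ac these sites were not among the very strongest. Notch3 had the highest rank (1834) and Lfng the lowest, at 32041 (percentile 58.9), with H3K27ac signals of 1039 and 1604. The pSMAD1/5/9 peaks at Hes6, Rbpj and Hes1 ranked 171, 248 and 361, and that at Lfng 2987, with signals of 10381 and 12171. Lfng, Hes1 and Hey1 were among the 7 gained genes, and Hes6, Notch3 and Numbl were kept. Gained rests on presence in the peak lists and is not a test of a difference in binding. The paper lists Lfng among the genes with differential SMAD binding. At Hes1 and Hey1 the paper describes more binding by eye, but its differential binding test did not pick out these regions. The ligand genes Jag1 and Dll1 had active TSSs, at percentiles 90.8 and 81.3, without pSMAD1/5/9 within 20 kb, and Notch1, Notch2, Jag2, Maml1 and Mfng had it in another H3K27ac peak.

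Of 18 active genes of MuSC and myogenic factors, 11 had pSMAD1/5/9 in a TSS peak, at a median H3K27ac percentile of 98.8. Pax7 lay in a domain of 65100 bp (chr4:139502301-139567400, rank 17), and the best of its 9 pSMAD1/5/9 peaks ranked 48, with signals of 68329 and 31497. Cdh15, which encodes M-cadherin, had a pSMAD1/5/9 peak of rank 36 (77184 and 26033). Myod1, the master regulator of myogenesis, had 4. Myog, a marker of differentiation, had 1 of rank 577. Mef2a, Mef2d, Six4, Itga7, Des and Sdc4 also had it. Without pSMAD1/5/9 within 20 kb were Myf5 and Myf6, Pax3 (H3K27ac rank 518), Vcam1 (1861), Mef2c and Cd34. The strongest active sites of MuSC identity were therefore found on both sides of the division, as the plot of ranks shows for Pax7 and Myf5. Of 17 active genes for contraction and fusion, 11 had pSMAD1/5/9 in a TSS peak, at a median percentile of 96.3. Among them were Mymk and Mymx, which drive myoblast fusion, Acta1, Actc1, Ttn and the troponin genes Tnni1, Tnni2, Tnnt1 and Tnnt2. Tnni2 had the best pSMAD1/5/9 peak of these, of rank 164. The TSS peak of Mymx was 12880 bp wide. Its strongest pSMAD1/5/9 summit was nearest to the TSS of another gene, Slc29a1, 1488 bp upstream of it.

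**Figure D5:**
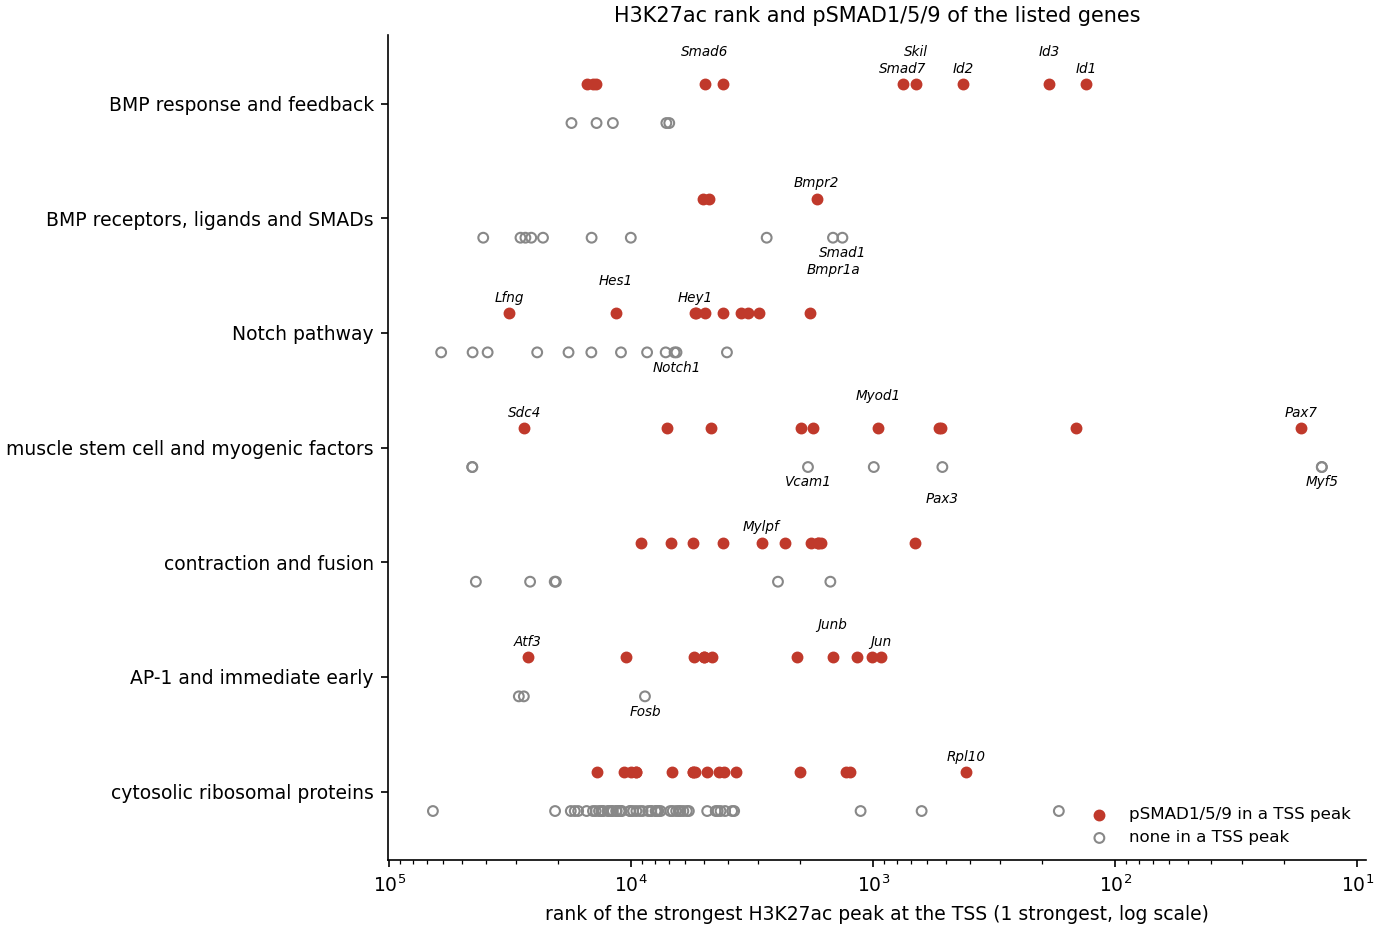
Rank of the strongest H3K27ac peak at the TSS (log scale, 1 strongest, to the right) of the genes in 7 lists. Filled points have pSMAD1/5/9 in a TSS peak and open points do not. Filled points reach from Pax7 (rank 17) to Lfng (rank 32041), and Myf5 (rank 14) is open.

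The AP-1 and immediate early genes had the highest share of the 8 lists of pathways and functions. A TSS peak held pSMAD1/5/9 in 11 of 14 active genes, at a median H3K27ac percentile of 93.6, and in 9 of 9 in the top 10%. Egr1 had a pSMAD1/5/9 peak of rank 220, Fosl2 of 404, Jund of 463, Junb of 472, with 6 in a peak of 13300 bp, and Jun of 594. Fos, Fosl1, Atf3, Ier2, Ier3 and Myc also had it, Fosl1 in a TSS peak other than its strongest, whereas Egr3 and Fosb had none within 20 kb and Egr2 had it in another peak. Of the 3 E protein genes, with a median H3K27ac percentile of 87.4, Tcf3 had pSMAD1/5/9 in its TSS peak and Tcf4 and Tcf12 in another one. The 73 active genes for cytosolic ribosomal proteins, which every cell uses, served as a list with no known tie to BMP. They had a high median H3K27ac percentile, 89.8, and 18 of them had pSMAD1/5/9 in a TSS peak (24.7%), with 13 of 34 in the top 10%. Rpl10, on the X chromosome, had the best rank of these (156). Since members of a list can share peaks and were chosen with results of these data known, the counts describe the lists and carry no test.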

How the data were processed

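Peaks of pSMAD1/5/9, SMAD4 and H3K27ac from CUT&Tag were taken from 6 consensus lists, which cover 12 of 14 libraries. The other two, made with no primary antibody, were not used here. According to the methods, the authors reduced the libraries of an antibody to a like number of reads, used Bowtie2 to align to GRCm39 (2.5.4, in the submitters' processing notes beside SAMtools 1.21 and bedtools 2.31.1), called peaks per replicate with JAMM and combined both replicates with IDR at 0.05, ranked by signal. The deposited signal is a score of the peak caller, and each consensus value was the sum of both replicate columns to within 0.01. The deposited lists also hold −log10 of the IDR. They hold no read counts, so that no depth can be given for a peak.

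Lists were compared by overlap of at least 1 bp. TSSs were those of canonical transcripts of 21757 protein-coding genes (GENCODE M39), with 2 kb on either side. Remaining peaks were assigned to exons, then introns, then intergenic sequence. Signal and width were each cut into 10 bins. Shares have Wilson intervals, differences Newcombe intervals, ratios intervals on the log scale and medians order-statistic intervals. A share of 0 is given with the limit that 3 counts allow. The functions were tested on simulated peaks. The peaks named are the 10 strongest TSS peaks with and without pSMAD1/5/9, the 10 strongest distal peaks with it, the 5 with most pSMAD1/5/9 peaks, and those of 13 gene lists, by nearest TSS. Of the listed genes, 2 are counted in their lists but not reported singly here or plotted. The members and lists were chosen with earlier results of these data known. Python 3.11.15, numpy 2.4.6, pandas 2.3.3, scipy 1.17.1, pysam 0.24.0, matplotlib 3.10.9 and SAMtools 1.23.1 were used. Alternatives covered IDR, overlap, merging, TSS definition, strata, autosomes and single replicate columns.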

Additional observations from a re-analysis of the deposited data

How the results depend on the processing

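For 7 results, 65 alternatives were run, of which 12 were chosen after seeing the data. None of these values reversed in direction, 22 stayed within the interval or margin of the value reported and 43 moved beyond it. No cause of a move was tested. At an IDR of at most 0.01 for pSMAD1/5/9, the share with pSMAD1/5/9 was 4.07% (7.65% in the report), the width ratio 2.9 (2.5), the difference in signal percentile 46.8 (46.0), the share of summits in the middle part 58.7%, the difference in control H3K27ac 28.8 points and the number of genes 1525. The same limit for H3K27ac gave 9.84%, 2.08 and 44.7 for the first 3. Merging peaks closer than 1 kb gave 9.43%, a width ratio of 2.73 and 48.6% of summits in the middle part. Windows of 1 kb gave a share of 5.65% and a TSS to distal ratio of 3.55. On autosomes the share was 7.94% and the control H3K27ac difference 28.0 points, and without the pSMAD1/5/9 peaks present in control cells the share was 7.01%. In TSS and in distal peaks alone, the width ratio was 1.79 and 2.63, the difference in signal percentile 16.2 and 49.1, and the share in the middle part 52.5% and 60.6%. Within bins of signal, weighted by peaks with pSMAD1/5/9, the width ratio was 1.14, although it was below 1 in 8 of the 10 bins (0.688 to 0.938) and above 1 in bins 9 (1.03) and 10 (1.26) alone, and the control H3K27ac difference 0.180 points. Signal bins 1 to 5 held at most 40 peaks with pSMAD1/5/9 each. Within bins of width the signal difference was 14.4 and the control H3K27ac difference 6.30 points, which was 34.7 points when 50% of both peaks had to overlap. Signal per kb gave a difference of 28.0. The TSS to distal ratio was 4.10 and 4.22 for windows of 1 and 0.5 kb, 3.63 with all basic transcripts, 3.36 by midpoint, 1.11 over bins of signal, 1.15 over bins of signal and width, and 1.02 in the strongest bin. The share in the middle part was 61.9% with a single pSMAD1/5/9 peak and 46.0% in peaks of at least 5 kb. With either replicate column left out, the width ratio ran from 2.67 to 2.81, the signal difference from 44.6 to 46.0 and the share in the middle part from 51.4% to 54.5%. No paired analysis was possible because replicates were merged into consensus lists whose columns carry no replicate number, and no test was run. Without read counts, sites below a list's threshold cannot be told apart from sites without signal.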
